A study of Bos taurus with 48 samples.

Results

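Reads from 7 genes of the skeletal muscle fibre were followed through subcutaneous fat biopsies of growing heifers. The genes were ACTA1, MYLPF, MYL1, MYH2, MYH7, TNNI2 and CKM, which are 7 of the 24616 genes in the count data, and they were taken because their products belong to the contractile apparatus or the energy supply of skeletal muscle. All 7 were measured in all 48 libraries, by heifer, diet and sampling time. All 7 are on the study's list of genes called between LPHE and LPLE heifers in these same samples, so the choice was not free of their levels. ACTA1 was named by the study for another diet contrast as well.

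The biopsies came from 24 Norwegian Red heifers, 6 on each of 4 diets that combined a low (LP) or high (HP) protein level with a high (HE) or low (LE) energy level. The diets were fed from 3 months of age until a pregnancy was established, and the first biopsy was taken at 12 months of age, while they were being fed. The second biopsy was taken from the same heifers in month 7 of gestation, at 20 to 24 months of age, when all of them shared one low-energy pregnancy diet. Each diet held 3 heifers of a pedigree bred for high milk yield (HMY) and 3 of a pedigree bred for low clinical mastitis (LCM). Fat was taken lateral to the tail base, and each library is therefore a mixture of every cell type in 1 piece of tissue. A larger share of muscle fibres in a biopsy and more muscle RNA per cell cannot be told apart in such data.

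A skeletal muscle fibre contracts when myosin heavy chains pull on filaments of alpha-actin. Each heavy chain carries light chains that tune the motor, troponin on the actin filament makes the pull depend on calcium, and creatine kinase refills the ATP that the motor spends. Fast and slow fibres use different heavy chains and troponins. White fat has no such fibres, although its blood vessels hold smooth muscle with actins and a myosin of its own.

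The libraries held 14815595 to 61027456 reads on genes, with a median of 32166717 at 12 months and 43293433 in gestation. Levels are given as CPM, the reads of a gene for every 1000000 reads on genes after scaling with TMM factors, so that 3 reads were worth 0.0492 to 0.202 CPM. CPM is not divided by transcript length, so levels are compared between libraries for 1 gene and not between genes. The tissue label was checked against the 2 of 9 fat cell markers that could be matched, and LEP and CIDEC together reached 888 to 3381 CPM in every one of the 48 libraries. The 7 members ranged from 0 reads to 115 CPM.

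Alpha-actin was the member with the highest single value. ACTA1, the skeletal alpha-actin of the thin filament, had reads in 44 of 48 libraries, a median of 0.166 CPM, and a highest value of 115 CPM. It was above 1 CPM in 16 libraries. The coding sequence of ACTA1 is nearly identical to those of the smooth and cardiac muscle actins, so reads may be split between these genes and its counts are the least certain of the 7.

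The fast-fibre genes MYH2 and MYL1 had no read in most biopsies. MYH2, a fast myosin heavy chain, had no read in 30 of 48 libraries and reached 85 CPM in the highest. MYL1, the essential light chain of fast fibres, had no read in 34 libraries and a highest value of 46.2 CPM. MYLPF, the regulatory light chain of fast fibres, had no read in 13 libraries and was above 1 CPM in 8. A library without a read could still hold up to its 3-read level of these transcripts.

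MYH7, TNNI2 and CKM were read in every library. MYH7, the myosin heavy chain of slow fibres and of the heart, ranged from 0.125 to 32.1 CPM around a median of 0.566. CKM, the muscle creatine kinase, ranged from 0.0619 to 31.3 CPM around a median of 0.382. TNNI2, the inhibitory troponin subunit of fast fibres, was spread most evenly, from 0.0979 to 9.63 CPM, and was above 1 CPM in 31 of 48 libraries.

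A few libraries held most of the reads. The 4 libraries with the most reads of a gene carried 79% of all ACTA1 reads, 80.2% of MYLPF, 85.6% of MYL1, 83.9% of MYH2, 71.4% of MYH7 and 75.8% of CKM, but 35.6% of TNNI2. For all 7 genes the highest library was that of HPHE heifer 19 in gestation. The heat map of all members by heifer shows these libraries as bright columns.

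**Figure D1:**
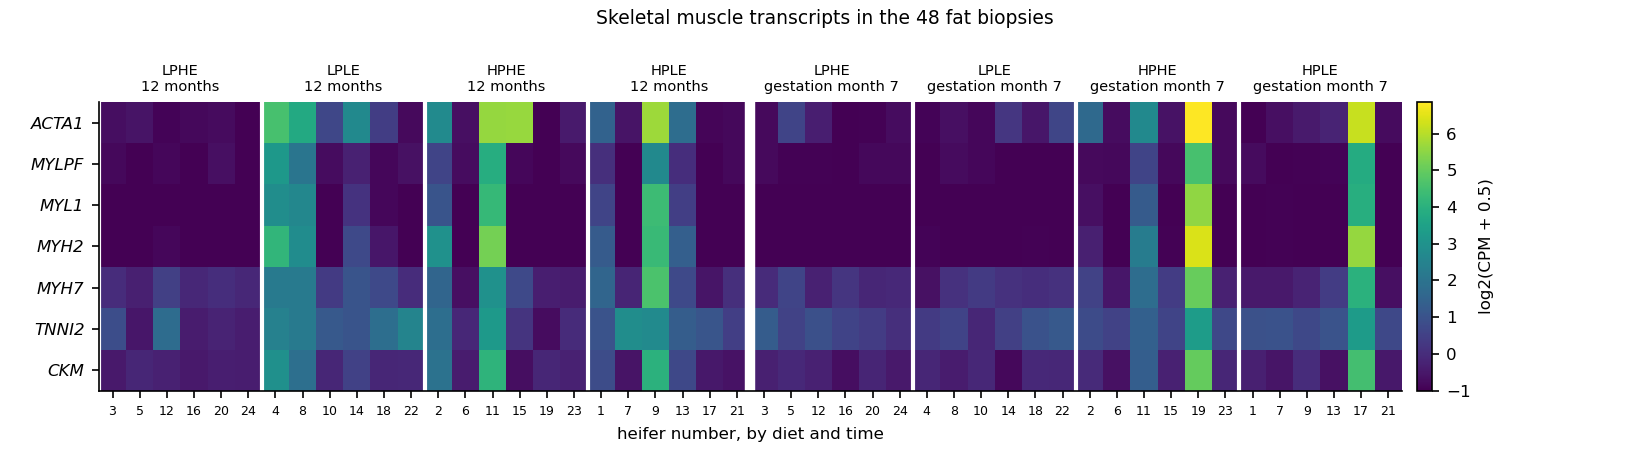
Level of each member (rows) in each of the 48 libraries (columns, by heifer number within diet and time) as log2(CPM + 0.5), from dark (low) to yellow (high). Most members rise together in single columns such as HPLE heifer 9 at 12 months and HPHE heifer 19 in gestation (MYH2 85 CPM), while the 12 columns of LPHE stay dark for MYL1 and MYH2; HPHE heifer 15 at 12 months is bright for ACTA1 alone.

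Levels of the members moved together across libraries. Over the 48 libraries, Pearson's r of log2(CPM + 0.5) was 0.98 to 0.99 for every pair among MYLPF, MYL1, MYH2 and CKM, and 0.92 to 0.95 between MYH7 and each of these 4. It was 0.66 to 0.75 between TNNI2 and the other members. ACTA1 had r of 0.87 to 0.91 with MYLPF, MYL1, MYH2, MYH7 and CKM, and 0.94 to 0.97 over the 47 libraries without HPHE heifer 15 at 12 months. These values are a description: each heifer gave 2 of the libraries, many libraries share a level near 0, and Spearman's rho was lower, from 0.51 to 0.91.

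Outside the members, the 10 genes most like ACTA1 over the 48 libraries had r of 0.787 to 0.89 among 13718 genes compared. None of the 10 could be given a symbol. The first was ENSBTAG00000046725, with r = 0.89. LDB3, which anchors proteins at the Z-disc of striated muscle, came at rank 22 with r = 0.585. EEF1A2, the translation elongation factor form of muscle and nerve, came at rank 23 with r = 0.583 and is named here after its values were seen.

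The largest diet contrast addressed high against low energy on low protein at 12 months. All 7 members were lower in LPHE than in LPLE heifers. The likelihood ratio test of edgeR at a false discovery rate (FDR) of 0.1 called 7 of 7 lower, where 2.63% of the 13339 genes tested were called lower. Because all 7 members are among the study's own calls in this contrast, the count is no independent evidence of the direction. The test took genes that reached 2 CPM in 3 or more libraries of the sampling. ACTA1, MYLPF, MYL1, MYH2, MYH7 and CKM reached 2 CPM in no LPHE library, so they entered it through the other diets alone. The median difference of the members was -1.46 on the log2(CPM + 0.5) scale, beside -0.00 for all genes.

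ACTA1 ranged from 0 to 0.17 CPM in LPHE heifers, with a median of 0.0724, and from 0.0705 to 23.2 CPM in LPLE heifers, with a median of 3.63. Every LPHE heifer was low, LPLE heifers were spread over both levels, and the ranges overlapped. The fitted difference was -6.48 ± 1.56 (log2, SE, n = 6 per diet), with an edgeR FDR of 0.00489. In reads summed over each diet, 1602 in LPLE stood against 16 in LPHE, a ratio of 114 after division by library size (95% interval 69.7 to 199, covering counting error only, as do all intervals here).

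MYLPF ranged from 0 to 0.121 CPM in LPHE and from 0.0501 to 8.64 CPM in LPLE, with medians of 0.0254 and 0.234. The groups overlapped, and 65.3% of the LPLE reads came from heifer 4. The fitted difference was -7.06 ± 1.6 (log2, SE), with an edgeR FDR of 0.00306.

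The fast heavy chain and its essential light chain were near or below detection in every LPHE heifer. MYL1 had no read in any of the 6 LPHE libraries and 493 reads in LPLE, where 4 of 6 heifers had reads and the median was 0.334 CPM. It was at least 186-fold lower in LPHE, counting 3 reads over the group as the floor, with an edgeR FDR of 0.00499. MYH2 had 2 reads in LPHE, both from heifer 12, and 927 reads in LPLE, where 4 of 6 heifers had reads and the highest had 17.3 CPM. The ratio was 526 (95% interval 145 to 4348) and the edgeR FDR was 0.0104.

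The 3 members that were read everywhere differed less. TNNI2 ranged from 0.198 to 2.92 CPM in LPHE and from 1.56 to 5.29 CPM in LPLE, with medians of 0.318 and 3.59, so that 6 of 6 LPLE heifers but 2 of 6 LPHE heifers were above 1 CPM. It fell by 2.49 ± 0.74 on the log2 scale (edgeR FDR 0.0277). CKM ranged from 0.221 to 0.396 CPM in LPHE and from 0.401 to 7.17 CPM in LPLE, and the fit gave -2.61 ± 0.941 (edgeR FDR 0.0873). Of the members only CKM had groups that did not overlap in this contrast. The narrow gap lay between LPHE heifer 5, with 14 CKM reads, and LPLE heifer 18, with 8. The share of all genes without overlap was not counted. MYH7 ranged from 0.311 to 0.913 CPM in LPHE and from 0.494 to 4.24 CPM in LPLE, with a fit of -2.25 ± 0.815 (edgeR FDR 0.0882).

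An exact permutation test of each gene, two-sided over all splits of 6 against 6, needs no count model and cannot go below p = 0.00216. CKM reached that smallest value, as any gene does whose groups do not overlap, however narrow the gap. ACTA1 and TNNI2 gave an exact p of 0.00866, MYLPF 0.0152, MYH7 0.0195, and MYL1 and MYH2 0.0606. After Benjamini-Hochberg adjustment over 13339 genes the values lay between 0.161 (CKM) and 0.341 (MYL1 and MYH2), so that none of the 7 passed. With edgeR's quasi-likelihood test, which called 2.79% of genes lower, 5 of 7 members were called and MYH7 (FDR 0.169) and CKM (FDR 0.168) were not. Leaving out 1 heifer at a time, ACTA1, MYLPF, MYL1 and MYH2 stayed called in all 12 fits, TNNI2 was lost without LPHE heifer 5 (FDR 0.103), CKM was lost in 8 fits (without heifers 3, 4, 8, 12, 14, 16, 20 or 24; FDR up to 0.318) and MYH7 in 7 (without heifers 3, 5, 8, 14, 16, 20 or 24; FDR up to 0.311).

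**Figure D2:**
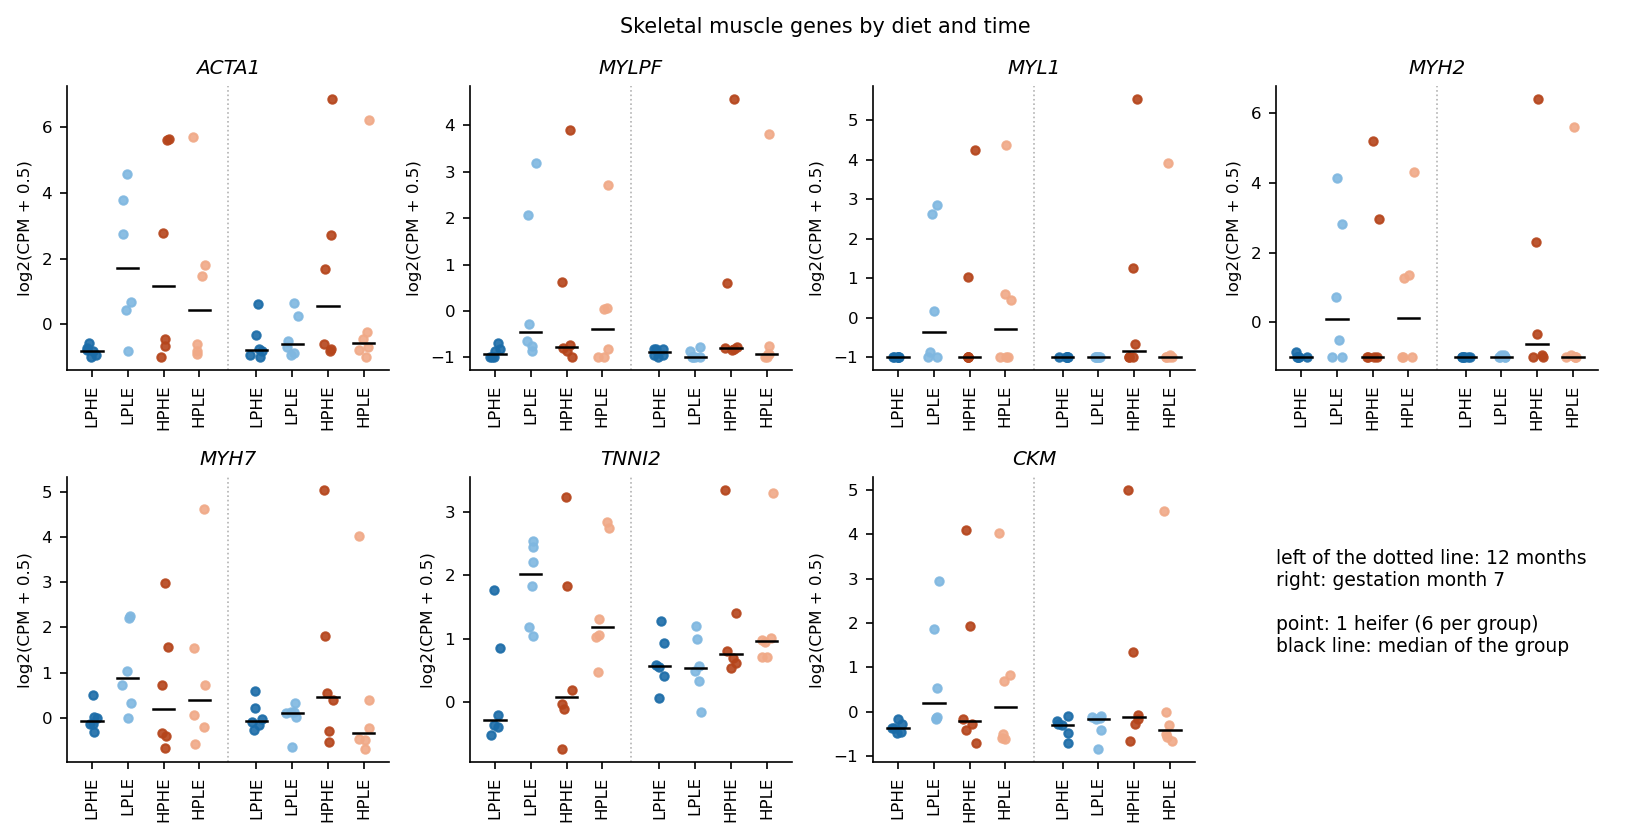
Each member as log2(CPM + 0.5) (vertical axes, which differ in range) for the 6 heifers of each diet, at 12 months left of the dotted line and in gestation month 7 right of it; points are heifers and black lines medians. In LPHE at 12 months ACTA1 stays at or below 0.17 CPM, while in the other 3 diets single heifers reach 23.2, 49.1 and 51.7 CPM.

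Other muscle genes were few in this comparison, since 4 of 64 genes on the muscle lists could be matched to an identifier, and those identifiers came from the same list of calls. RYR1, the calcium release channel of the sarcoplasmic reticulum, was lower in LPHE, with -0.775 ± 0.258 (log2, edgeR FDR 0.0572). PVALB, the calcium buffer of fast fibres, went the other way and was higher in LPHE, with 1.32 ± 0.477 (edgeR FDR 0.0873). LDB3 gave -1.5 ± 0.705 (FDR 0.23) and DES, an intermediate filament of all muscle types, -2.02 ± 1 (FDR 0.262), and neither was called. Of the 4 matched muscle genes, 1 was thus lower, 1 higher and 2 not called.

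Some markers of other cell types differed between the same diets. Their identifiers too came from the study's tables of called genes, so a call here is no independent evidence. The 4 matched smooth muscle genes of 8 listed (MYH11, CNN1, ACTG2 and SMTN) summed to 78.6 to 439 CPM in LPHE heifers, median 192, and to 178 to 2403 CPM in LPLE heifers, median 686, and ACTG2 was called lower in LPHE (-2.71 ± 0.917, edgeR FDR 0.062), while MYH11 (FDR 0.206), CNN1 (FDR 0.189) and SMTN (FDR 0.265) were not called. The 4 matched matrix genes of 6 listed (COL1A1, COL1A2, COL3A1 and DCN) were all called lower in LPHE (edgeR FDR 0.0129 to 0.0816). The adipocyte sum of LEP and CIDEC, 2 of 9 listed, went the other way, from a median of 1448 CPM in LPLE to 2691 CPM in LPHE, and LEP was called higher in LPHE (1.6 ± 0.355, edgeR FDR 0.00212) while CIDEC was not called (FDR 0.132). SOX10, a transcription factor of Schwann cells, ranged from 0.618 to 3.47 CPM in LPHE and from 1.9 to 7.16 CPM in LPLE and was called lower in LPHE (-1.43 ± 0.456, edgeR FDR 0.0446). The 1 matched cardiac gene of 6, TNNT2, lay between 3.57 and 16.4 CPM in all 48 libraries and was not called (FDR 0.123). The part of these differences in the lower muscle levels was not tested.

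On high protein the energy contrast at 12 months showed no called member. HPHE and HPLE heifers had ACTA1 medians of 3.28 and 1.23 CPM, highest values of 49.1 and 51.7 CPM, and a fitted difference of 1.32 ± 1.33 (log2, edgeR FDR 0.869). Of the 7 members, 0 were called in this contrast by edgeR, where 0.120% of genes were called, and none had an unadjusted p under 0.05. HPLE against LPLE also had 0 of 7 called, with 0.0225% of genes called and unadjusted p of 0.0919 (MYLPF) or more. The quasi-likelihood test and DESeq2 also called 0 in both contrasts.

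ACTA1 was higher in HPHE than in LPHE heifers at 12 months. It was the 1 member of 7 called, at 7.75 ± 1.64 (log2, SE, edgeR FDR 0.0107), and the only gene of 13339 called higher (0.00750%). The 3082 reads in HPHE stood against 16 in LPHE, but 67.4% of them were in heifer 15. HPHE heifers 2, 11 and 15 were at 6.32, 47.9 and 49.1 CPM, and the other 3 were at or below 0.237 CPM, in the range where LPHE heifers also reached 0.17 CPM. Without heifer 15 the FDR was 0.416, without LPHE heifer 24 it was 0.118, and the exact permutation p was 0.0455 (adjusted over all genes, 1). It was not called by the quasi-likelihood test, nor with dispersions by estimateDisp (FDR 0.116). DSP, a gene of epithelial cell junctions, was called lower in the same contrast (-3.71 ± 0.77, edgeR FDR 0.00925), with 0.162 to 3.48 CPM in HPHE and 0.198 to 68.9 CPM in LPHE, and its part in the result was not tested. The contrast shares its LPHE libraries with LPHE-LPLE, and the other members had unadjusted p of 0.000326 (MYLPF) to 0.076 (MYH7), with FDR of 0.256 or more. ACTA1 reached 2 CPM in no LPHE library, so here too it entered the test through the other diets alone.

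The energy contrast was called different between protein levels for 2 members. The test of the difference, LPHE-LPLE minus HPHE-HPLE at 12 months, gave -7.8 ± 1.97 for ACTA1 and -7.45 ± 1.9 for MYLPF (log2, SE), each with an edgeR FDR of 0.0893, where 0.0225% of the 13339 genes were called lower. Neither was called by the quasi-likelihood test or DESeq2. The difference contains LPHE-LPLE at 12 months, where all 7 members are among the study's own calls, so it is no independent evidence. ACTA1 and MYLPF reached 2 CPM in no LPHE library. The ACTA1 call was lost in 14 and the MYLPF call in 13 of 24 fits that left out 1 heifer, with FDR up to 0.345 and 0.746.

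In gestation, when the heifers shared a diet, the members formed another pattern. LPHE heifers remained low: MYL1 and MYH2 had no read in any of the 6, and the highest ACTA1 value was 1.02 CPM. LPLE heifers were now low too, with no MYL1 read, 2 MYH2 reads and a highest ACTA1 value of 1.06 CPM. In HPHE and HPLE 1 heifer each stood far above the rest, heifer 19 with 92.8% of the ACTA1 reads of its group and heifer 17 with 98.8%. At this sampling, 5 of 7 members could be tested, because MYLPF and MYL1 were at 2 CPM or more in only 2 libraries (HPLE heifer 17 and HPHE heifer 19).

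LPHE and LPLE heifers were not called apart in gestation. By edgeR 0 of 5 members tested were called, with 1.05% of the 13403 genes tested called and unadjusted p of 0.162 (MYH2) or more. CKM medians were 0.319 and 0.4 CPM and TNNI2 medians 0.982 and 0.943 CPM. DESeq2 called MYH2, which had 0 reads in one diet and 2 in the other, so that both lay under the 3-read floor. HPHE against HPLE had 0 of 5 called (0.948% of genes), with unadjusted p of 0.257 (MYH7) or more, and 0 by the quasi-likelihood test and DESeq2.

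MYH2 was called between protein levels in gestation. HPHE heifers had 4296 reads and LPHE heifers none, at least a 1262-fold difference, and MYH2 was the 1 member called (edgeR FDR 0.022) and the only gene called higher (0.00746%). HPLE heifers had 1974 reads and LPLE heifers 2, a ratio of 1093 (95% interval 302 to 9034), and MYH2 was the 1 member called (edgeR FDR 0.0766), beside 0.0597% of genes called higher. Heifer 19 held 95.5% of the HPHE reads and heifer 17 held 99.9% of the HPLE reads. MYH2 entered the test through HPHE heifers 11 and 19 and HPLE heifer 17 alone, and without any of these 3 it was not tested. The HPHE-LPHE call was lost without heifers 3, 12 or 20 (FDR up to 1) and the HPLE-LPLE call without heifers 4, 8, 10 or 18 (FDR up to 0.536). The exact permutation p was 0.0606 and 0.879.

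The other members followed the same heifers without being called. In gestation MYH7 ranged from 0.197 to 32.1 CPM in HPHE and from 0.33 to 1.02 CPM in LPHE, and CKM from 0.132 to 31.3 CPM and from 0.111 to 0.432 CPM. Medians differed little: 0.892 against 0.462 CPM for MYH7 and 0.428 against 0.319 CPM for CKM. MYLPF, not tested by edgeR, had an exact permutation p of 0.0173 in HPHE-LPHE, and 1 after adjustment over all genes. The members' median difference in that contrast was 1.21 on the log2(CPM + 0.5) scale, beside 0.01 for all genes.

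Pedigree was also compared, because each diet held 3 heifers of each. At 12 months 0 of 7 members were called between HMY and LCM heifers (edgeR, 0.0300% of genes called), with FDR of 0.246 (MYLPF) or more. The unadjusted edgeR p was under 0.05 for 6 members, all but ACTA1, beside 1228 of all 13339 genes tested. A permutation test of each member (two-sided, 100000 resamples of 12 against 12, unadjusted) gave p of 0.0802 (CKM) to 0.471 (ACTA1). Values were higher in HMY by a median of 0.89 on the log2(CPM + 0.5) scale, beside 0.01 for all genes. TNNI2 was above 1 CPM in 10 of 12 HMY and 5 of 12 LCM heifers, and CKM in 5 and 2.

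In gestation the heifers above 1 CPM were of the HMY pedigree for 4 members. MYLPF, MYL1, MYH2 and CKM were each above 1 CPM in 3 of 12 HMY and 0 of 12 LCM heifers, and MYH2 had 6270 reads in HMY and 2 in LCM. MYH2 was called higher in HMY by edgeR (FDR 1.28e-05), 1 of 5 members tested, where 0.0448% of genes were called higher. It was not called by the quasi-likelihood test, and without heifer 11, 17 or 19 it was not tested. The gestation libraries at 2 CPM or more, through which the 5 members entered the test, were all of HMY heifers (11, 17 and 19, and for ACTA1 also heifer 2), so the call describes those libraries and is no support for a pedigree difference. CKM ranged from 0.309 to 31.3 CPM in HMY, with a median of 0.43, and from 0.0619 to 0.432 CPM in LCM, with a median of 0.216. CKM gave an edgeR FDR of 0.117 and the smallest permutation p of the 7, at 0.00045 (two-sided, 100000 resamples of 12 against 12). By the same permutation test MYH2 gave 0.02, MYLPF 0.0498, MYL1 0.0929, ACTA1 0.13, TNNI2 0.135 and MYH7 0.166. These permutation p values are unadjusted, and the shuffles took no account of diet.

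Each heifer was sampled at both times, and the time contrast was largest in LPLE. There MYLPF fell from a median of 0.234 to 0 CPM (edgeR FDR 0.0875), and MYL1 from 493 reads to none, at least 229-fold (FDR 0.0148). MYH2 fell from 927 reads to 2, a ratio of 645 (95% interval 178 to 5331; FDR 0.0207). These were 3 of 7 members called lower in gestation, where 0.262% of the 13718 genes tested were called lower. All 7 members are among the study's calls between LPHE and these LPLE libraries at 12 months. Counts in this contrast are therefore no independent evidence of a fall. In LPLE these 3 genes reached 2 CPM in heifers 4 and 8 at 12 months and in no gestation library. With the heifer as a block, which called 0.999% of genes lower, TNNI2 was called as well (FDR 0.0902), making 4 of 7.

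TNNI2 and MYLPF were lower in gestation in 6 of 6 LPLE heifers. Each gave an unadjusted exact sign-flip permutation p of 0.0312, the smallest that 6 pairs can give. For MYLPF, heifer 18 went from 1 read to 0, heifer 22 from 2 to 0 and heifer 10 from 4 to 2. These differences lie near the 3-read floor, and the 6 of 6 for MYLPF rests partly on them. The share of all genes lower in 6 of 6 heifers was not counted. The TNNI2 median went from 3.59 to 0.943 CPM. ACTA1 was lower in 5 of 6 heifers (exact p 0.0938), from a median of 3.63 to 0.163 CPM, and was not called by edgeR (FDR 0.387). The quasi-likelihood test called 0 of 7 in this contrast. Without LPLE heifer 4, 10, 14, 18 or 22 MYLPF was no longer called (FDR up to 0.267), whereas MYL1 and MYH2 stayed called in all 6 fits. By the sign-flip test, however, MYL1 and MYH2 each gave an exact p of 0.125, with 4 of 6 heifers lower. Heifers 4 and 8 held 243 and 232 of the 493 MYL1 reads at 12 months, and 625 and 266 of the 927 MYH2 reads.

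The other diets had no called member over time. In LPHE, where 29.8% of genes were called, 0 of 7 members were called (edgeR; unadjusted p of 0.189, for ACTA1, or more), and ACTA1 medians were 0.0724 and 0.082 CPM. In HPHE, with 32.4% of genes called, 0 of 7 were called and the smallest unadjusted p was 0.119 (MYH7). In HPLE, with 2.62% of genes called, 0 of 7 were called and the smallest unadjusted p was 0.13 (MYH2). The quasi-likelihood test called 0 in these 3 diets, and DESeq2 called MYH2 in LPHE, on 2 reads against 0.

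Averaged over the 4 diets, MYH2 was called lower in gestation (edgeR FDR 0.00325), 1 of 7 members, where 22.6% of genes were called lower. The call turned on 2 reads: without LPHE heifer 12, which held them, the FDR was 1. Summed over all heifers MYH2 was higher in gestation, with 6272 reads (6.43 CPM) against 2687 (3.47 CPM), and the permutation test over 24 heifers gave p = 0.364. With the heifer as a block ACTA1 (FDR 0.0507), MYLPF (FDR 0.00328) and MYH2 (FDR 0.016) were called lower, 3 of 7, where 24.9% of genes were.

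**Figure D3:**
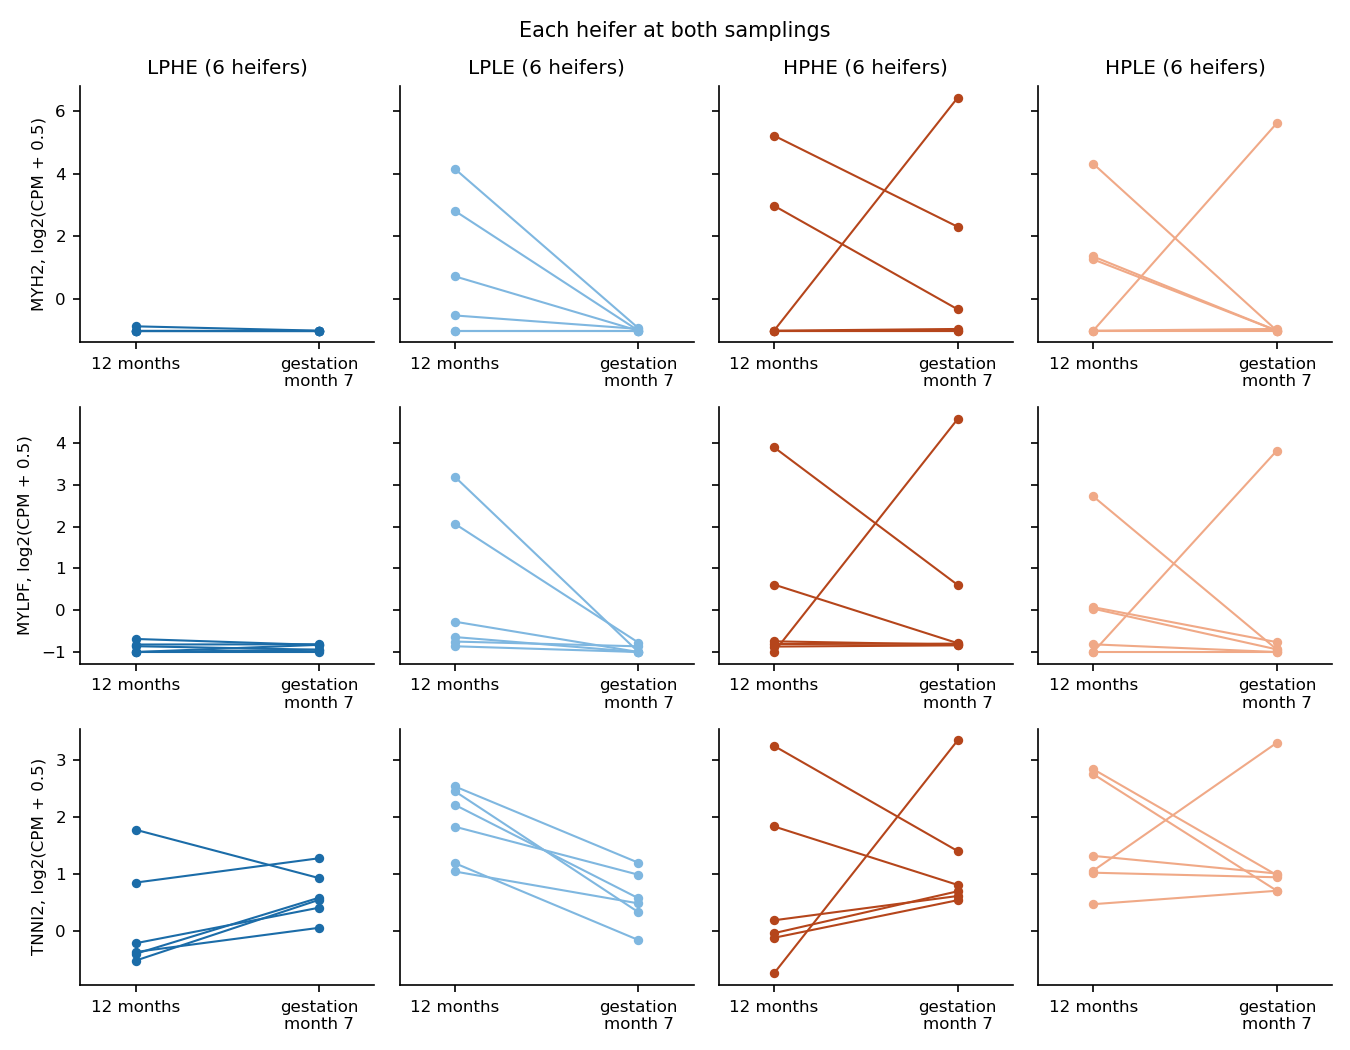
MYH2, MYLPF and TNNI2 (rows, log2(CPM + 0.5)) in each heifer at 12 months and in gestation month 7, with lines joining the 2 biopsies of a heifer and 1 column per diet. All 6 LPLE lines fall for MYLPF and TNNI2, while HPHE heifer 19 and HPLE heifer 17 rise for MYH2 to 85 and 48.3 CPM. The MYLPF lines of LPLE heifers 10, 18 and 22 start from 4, 1 and 2 reads, near the 3-read floor.

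The overlap between the heifers with reads at the 2 samplings varied by gene. MYL1 was read in 9 heifers at 12 months and in 5 in gestation, and 2 heifers, HPHE heifers 2 and 11, were in both sets, which is 22.2% of the first set and 40% of the second. MYH2 was read in 10 and 8 heifers, 4 of them in both sets (40% and 50%), MYLPF in 18 and 17, with 13 in both (72.2% and 76.5%), and ACTA1 in 22 and 22, with 20 in both (90.9% of each). MYH7, TNNI2 and CKM were read in all 24 heifers at both samplings. Above 1 CPM, MYL1 and MYH2 shared 1 heifer each between samplings, of 6 and 8 heifers at 12 months and 3 in gestation. TNNI2 had 11 heifers above 1 CPM at both samplings, 73.3% of 15 and 68.8% of 16.

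Where MYH2 was read, the proportion of MYH7 to MYH2 reads differed between libraries. No other fast heavy chain was matched to an identifier, so this is no share of all slow against all fast myosin. In the 12 libraries with at least 10 MYH2 reads, MYH7 made up 16.8% (95% Wilson interval 14.3 to 19.7) to 76.2% (65.9 to 84.2) of the reads on MYH7 and MYH2 together. Among the deeper ones, HPLE heifer 9 at 12 months had 55.4% (53.1 to 57.6), HPHE heifer 19 in gestation 27.4% (26.3 to 28.6) and HPLE heifer 17 in gestation 24.5% (22.9 to 26.2). The intervals of the first and the other two did not overlap. HPHE heifer 2 had 24.9% at 12 months and 76.2% in gestation, and HPHE heifer 11 had 16.8% and 40.5%. MYH7 was also read at 0.125 to 1.16 CPM in the 30 libraries without any MYL1 or MYH2 read, a level to set beside its reads in libraries with few MYH2 reads. HPHE heifer 2 in gestation, with 19 MYH2 reads, had 0.965 CPM of MYH7, inside that range.

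**Figure D4:**
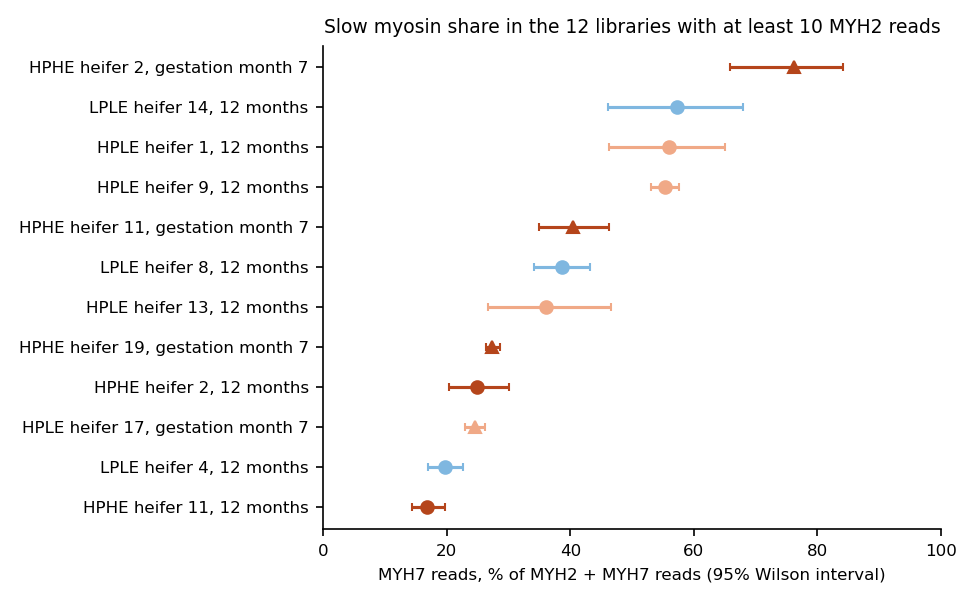
MYH7 reads as a percent of MYH2 plus MYH7 reads in the 12 libraries with at least 10 MYH2 reads; points are libraries (circles 12 months, triangles gestation month 7, coloured by diet) and bars are 95% Wilson intervals. Shares run from 16.8% in HPHE heifer 11 at 12 months to 76.2% in HPHE heifer 2 in gestation, the latter on 19 MYH2 reads.

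ACTA1 was found without the fast-fibre genes in some libraries. Of the 30 libraries with no MYL1 or MYH2 read, 9 had at least 10 ACTA1 reads. HPHE heifer 15 at 12 months had 2077 ACTA1 reads (49.1 CPM), no MYL1 or MYH2 read, and 1.16 CPM of MYH7. The same library had the highest values of the 48 for the smooth muscle genes MYH11 (2747 CPM) and CNN1 (621 CPM) and for DES (2850 CPM) and LDB3 (16.2 CPM), and it had 313 CPM of ACTG2, a smooth muscle actin. In the 12 libraries with at least 10 MYH2 reads there were 2.25 to 21.6 ACTA1 reads for each MYL1 read, and the 2 highest ratios, 21.6 and 10, were in HPHE heifer 2 in gestation and LPLE heifer 14 at 12 months, with 705 and 1451 CPM of MYH11. Whether reads of other actins were counted as ACTA1 in these libraries was not tested.

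**Figure D5:**
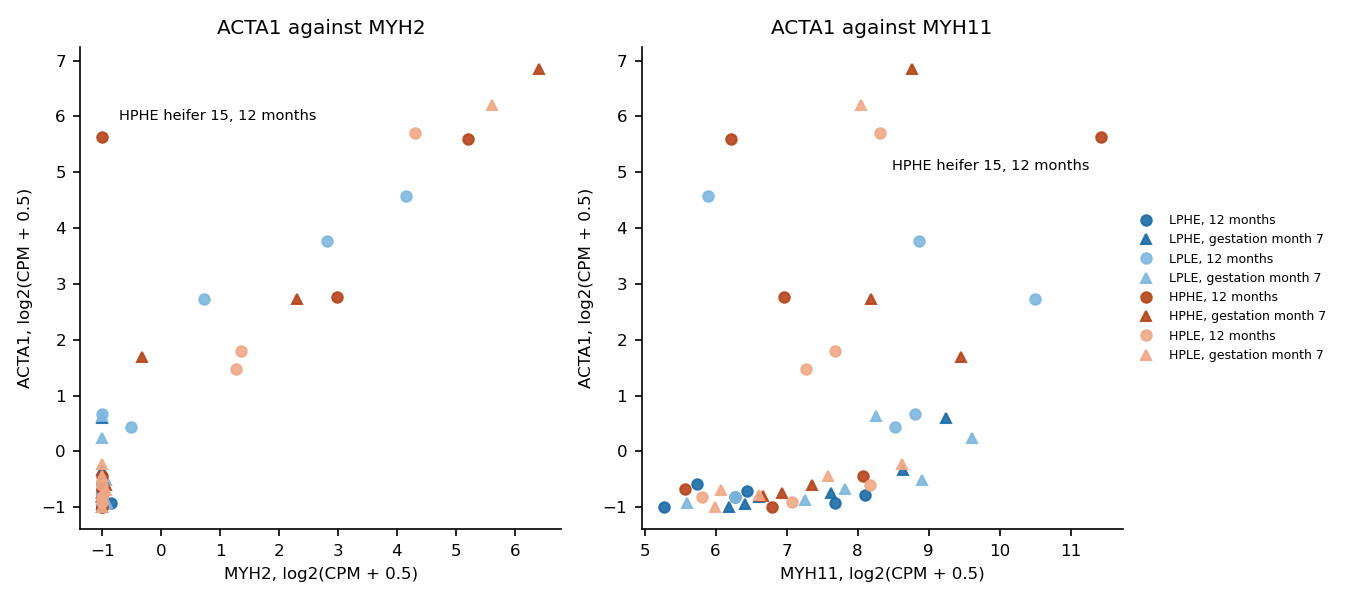
ACTA1 against MYH2 (left) and against MYH11, the smooth muscle myosin heavy chain (right), each as log2(CPM + 0.5), with 1 point per library (circles 12 months, triangles gestation month 7, coloured by diet). HPHE heifer 15 at 12 months has 49.1 CPM of ACTA1 with no MYH2 read and 2747 CPM of MYH11, away from the other libraries with high ACTA1.

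TNNI2 too was read apart from the rest. In the 30 libraries without MYL1 or MYH2 reads it ranged from 0.0979 to 6.64 CPM around a median of 0.975, while MYLPF stayed at or below 0.141 CPM and CKM at or below 0.492 CPM. The highest of these was HPLE heifer 7 at 12 months, with 6.64 CPM of TNNI2 and 0.162 CPM of ACTA1. TNNI2 at this level was therefore read where MYL1 and MYH2 were not.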

How the data were processed

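The series holds 48 mRNA libraries of bovine subcutaneous fat, made with an unstranded kit and sequenced in pairs. Per the labels and the study's methods, the authors ran Cutadapt 1.3 for trimming, TopHat2 2.0.12 for alignment on the UMD3.1 assembly and HTSeq for counting. The deposited files hold the resulting raw counts per gene, 1 file per library. A gene and an overlapping antisense gene cannot be told apart, and ACTA1 shares near-identical sequence with other actins. Rows for reads on no gene were left out of library sizes, so that 39.0 to 61.2% of counted reads (median 57.0%) were on genes; 0 of 1128 pairs of libraries were identical, and the files hold 0 columns of other samples. Libraries had 14815595 to 61027456 reads on genes.

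Counts were scaled with TMM factors (0.8654 to 1.13) and fitted in edgeR 4.0.16 (R 4.3.3) with diet and pedigree as terms, tagwise dispersions, a filter that kept genes reaching 2 CPM in 3 or more libraries of the fit, Benjamini-Hochberg adjustment over all genes tested, and calls at an FDR of 0.1, after the study's methods. The common and trended dispersion steps, the likelihood ratio test and the fit by sampling time were chosen here. SE is the log2 difference divided by the square root of the test statistic. Time was fitted over all 48 libraries by diet and time. Exact permutation tests used log2(CPM + 0.5). Ratios of summed reads carry exact 95% intervals, shares Wilson 95% intervals, and both cover counting error only. Scripts were tested on simulated counts.

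All 7 members are named in every comparison. From each marker or muscle list up to 4 genes of highest mean CPM are named, and any that was called. Symbols of 1101 genes were matched through the study's tables of called genes, which gave identifiers for 4 of 64 muscle genes and 15 of 57 cell type markers. No gene of the fast-fibre, slow-fibre, energy metabolism or regulator lists, nor of the brown fat, endothelium, immune and blood lists, was matched, and DSP was the 1 matched epithelial gene (0.162 to 74.7 CPM). The result of 1 other marker list is not reported here beyond SOX10. The members and lists were chosen with earlier results of these data known. No sequences or coordinates are given because no genome of this build was used here.

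The 2 biopsies of a heifer were paired by its number in the labels. Deviations from group means correlated over 13718 genes at -0.0584 to 0.549 (median 0.309) within heifers, 20 of 24 pairs were over 0.1, and other heifers of the same diet had a median of -0.0635. Alternatives were edgeR's quasi-likelihood test, DESeq2 1.42.0, other scalings and filters, an FDR of 0.05, only the 12 libraries of a contrast, the heifer as a block, leaving out each heifer, pseudocounts of 0.1 and 2, and, chosen after seeing the data, dispersions by estimateDisp and likeness without HPHE heifer 15. The routine for the tagwise dispersions was settled after the numbers of calls under estimateDisp had been seen.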

Additional observations from a re-analysis of the deposited data

Results flagged for a closer look

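In 29 of the 52 combinations of a member and a group of 6 with any spread, 1 heifer stood so far from the nearest other that its gap passed Dixon's 95% limit, where chance gives about 1 in 20 if values are normally distributed. All 29 were highest values, and 26 of them came from 4 libraries.

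HPHE heifer 19 in gestation stood apart for all 7 members, with 115 CPM of ACTA1, 23.3 of MYLPF, 46.2 of MYL1, 85 of MYH2, 32.1 of MYH7, 9.63 of TNNI2 and 31.3 of CKM. HPLE heifer 17 in gestation also did for all 7, with 73 CPM of ACTA1, 13.6 of MYLPF, 14.6 of MYL1, 48.3 of MYH2, 15.7 of MYH7, 9.34 of TNNI2 and 22.4 of CKM. At 12 months HPLE heifer 9 did for 6, with 51.7 CPM of ACTA1, 6.1 of MYLPF, 20.2 of MYL1, 19.4 of MYH2, 24.1 of MYH7 and 15.9 of CKM. HPHE heifer 11 did for 6, with 14.4 CPM of MYLPF, 18.5 of MYL1, 36.5 of MYH2, 7.41 of MYH7, 8.97 of TNNI2 and 16.7 of CKM. All 4 heifers were of the HMY pedigree, and heifers 17 and 19 had no MYL1 or MYH2 read at 12 months. The remaining 3 values were low: LPHE heifer 12 at 12 months with 0.0507 CPM of MYH2 (2 reads) and 0.913 CPM of MYH7, and LPHE heifer 5 in gestation with 1.02 CPM of ACTA1. What set these biopsies apart was not tested.

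The effect of dietary energy at 12 months was called different between protein levels for ACTA1 (edgeR FDR 0.0893) and MYLPF (edgeR FDR 0.0893) by the test of the difference itself, and neither held at an FDR of 0.05. That difference contains LPHE-LPLE, where the study called all members on these same samples, so it is no independent evidence.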

How the results depend on the processing

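No member called by the edgeR likelihood ratio test turned its direction under the alternative fits and settings run. Summed reads, however, put MYH2 over the 4 diets higher in gestation (6.43 against 3.47 CPM), opposite to its fit. Members that were not called are not covered by this statement on direction. In HPHE, MYH2 was fitted higher in gestation (1.026, log2) without being called. Heifer 19 held 4101 of those 4296 gestation reads, against 836 reads in HPHE at 12 months. Of the values for single members, 388 were rated the same as in the main setting and 92 were no longer past the threshold. The 388 include permutation tests that were not under 0.05 in the main setting. They also include numbers of libraries above 1 or 10 CPM, so 388 is no count of calls that held. The counts that follow are of members called. The quasi-likelihood test gave 0 for HPHE-LPHE at 12 months, HPHE-LPHE and HPLE-LPLE in gestation, the energy by protein difference, HMY-LCM in gestation, and time in LPLE and over the 4 diets. Dispersions by estimateDisp and no filter each gave 5 for LPHE-LPLE at 12 months (MYH7 and CKM lost) and 2 for time in LPLE (MYLPF lost), and the quasi-likelihood test also gave 5 for the former. Dispersions by estimateDisp gave 0 for HPHE-LPHE at both samplings, HPLE-LPLE in gestation and the energy by protein difference. DESeq2 gave 0 for HPLE-LPLE in gestation and the energy by protein difference, 1 (MYH2) for LPHE-LPLE in gestation and for time in LPHE, and 2 for HMY-LCM in gestation (MYH2 and CKM) and for time over the 4 diets (MYL1 and MYH2). An FDR of 0.05 gave 0 for HPLE-LPLE in gestation and the energy by protein difference, and scaling by library size alone gave 1 for that difference. With no filter, HPHE-LPHE, HPLE-LPLE and HMY-LCM in gestation had 2 (MYL1 and MYH2), and with at least 10 counts in every library 0, since only TNNI2 was tested. Using only the 12 libraries of a contrast gave 2 for LPHE-LPLE at 12 months (ACTA1 and TNNI2, the only members tested) and 0 for HPHE-LPHE in gestation (1 tested). With the heifer as a replicate block, time over the 4 diets had 3 and time in LPLE 4, and the block changed no other count. Leaving out 1 heifer gave 5 to 7 for LPHE-LPLE and 0 to 1 for HPHE-LPHE at 12 months, 0 to 1 for HPHE-HPLE (1 without heifer 17), HPHE-LPHE and HPLE-LPLE in gestation, 0 to 3 for the energy by protein difference, 0 to 1 (12 months; 1 without heifer 8 or 17) and 0 to 2 (gestation) for HMY-LCM, and for time 0 to 4 over the 4 diets (4 without heifer 17 or 19), 2 to 3 in LPLE, 0 to 3 in HPHE (3 without heifer 11, 1 without heifer 19) and 0 to 2 in HPLE (2 without heifer 17). Of 56 exact permutation tests 7 had p under 0.05, and 6 or 7 with the other pseudocounts. The strict filter left no member to test in the other comparisons, nor did the 12 libraries alone for LPHE-LPLE and HPLE-LPLE in gestation. With 3 reads worth 0.0492 to 0.202 CPM, lower levels of MYL1, MYH2 and MYLPF were not detectable.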
